A study of Mus musculus with 4 samples.

Results

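Fibulins, fibrillin-1, elastin, fibronectin and a set of matrix proteins made in wounds were described in mouse chondrocytes through the open chromatin around their genes. The 10 genes were Fbln1, Fbln2, Fbln5, Fbn1, Eln, Lox, Fn1, Tnc, Postn and Thbs1. Every peak that lay in one of these genes or within 50 kb of it was taken, with gene positions of the RefSeq table of GRCm38.p6. Overlapping peaks of the 4 libraries were joined into sites, which gave 226 sites at the 10 genes out of 170558 sites on chromosomes 1 to 19, X and Y.

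The assay was ATAC-seq, in which the Tn5 transposase cuts and tags accessible DNA, so that positions where many tags pile up mark open chromatin. The cells came from knee cartilage of newborn C57BL/6 mice, taken at postnatal days 0 to 4, and had received no treatment other than culture in serum-containing medium. Passage 0 (P0) cells were primary chondrocytes kept in culture for under a day, and passage 8 (P8) cells had been replated each time their number had doubled, with 2 libraries for each passage. The labels do not say whether the 2 libraries of a passage came from separate animals or cultures. The p-values thus bear on these libraries only, and a shift in the mix of cells cannot be told apart from a change within cells.

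Elastic fibres consist of a core of cross-linked elastin laid on microfibrils of fibrillin, and fibulins and lysyl oxidase help to assemble and cross-link them. Fibronectin, tenascin-C, periostin and thrombospondin-1 are matrix glycoproteins that cells deposit in development and wound repair, where they bind integrins, collagens and growth factors. In cultured chondrocytes that lose their cartilage phenotype, fibronectin and other matrix of a fibroblast kind are known to accumulate in place of cartilage matrix.

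MACS2, the peak caller of the authors, gives for each peak the pileup, which is the number of tags at its summit, and the fold enrichment, which is that pileup over the local background. The background, a measure of depth, was 194 (P0 library A), 162 (P0 library B), 140 (P8 library A) and 134 (P8 library B) tags per 10 kb. Both P8 libraries were thus shallower than both P0 libraries. A peak lay within 1 kb of an end of 8, 8, 7 and 7 of 8 chondrocyte marker genes and of 5, 5, 4 and 3 of 5 fibroblast marker genes in these libraries. For macrophages and blood, for endothelium and for muscle, 2 markers had such a peak in each P0 library and 1 in each P8 library, of 5, 4 and 4 markers. None of the 4 libraries had one at Ptprc, Csf1r, Adgre1, Pecam1, Cdh5, Pax7 or Myf5.

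At the 10 genes together, P0 libraries A and B yielded 205 and 175 peaks, and P8 libraries A and B yielded 120 and 145. Both P0 libraries therefore lay above both P8 libraries, with 190.0 ± 21.2 peaks at P0 and 132.5 ± 17.7 at P8 (SD, n = 2 each). The ratio of P0 to P8 was 1.43, beside 1.41 for the peaks of all chromosomes, and the exact two-sided permutation test gave p = 0.333, the smallest p that 2 libraries against 2 allow. Covered length was 61454 and 48271 bp in the P0 libraries, as against 32236 and 39870 bp in the P8 libraries, a ratio of 1.52, and over all chromosomes this ratio was 1.66. The median fold enrichment of the peaks at the 10 genes was 5.30 and 5.35 at P0, against 5.44 and 5.56 at P8. Peaks at these genes were thus more numerous at P0 by about the same ratio as peaks elsewhere. The medians of fold enrichment are over different sets of called peaks, so they do not compare the same sites. At these genes, 86 sites had a peak in all 4 libraries. Their mean fold enrichment had a median of 7.43 at P0 and 6.23 at P8. Over all such sites of the genome the median was 8.28 and 8.09 in the P0 libraries, against 6.43 and 7.15 in the P8 libraries. Scaling all libraries to the lowest background left 193, 175, 120 and 145 peaks, a ratio of 1.39. It took out no peak of P0 library B at these genes, so the ratio does not show how far depth bears on the counts.

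Genes differed among themselves in this respect. Both P0 libraries held more peaks than either P8 library at 8 of the 10 genes, and the reverse was found at 0 genes. Among 15704 protein-coding genes with as many peaks as the members (a mean of 5.5 to 34.25 per library), the first pattern was seen at 52.4% and the reverse at 2.63%. The exceptions were Fbln1, with 17 and 13 peaks at P0 and 15 and 14 at P8, and Postn, with 5 and 6 peaks at P0 and 5 and 6 at P8. Eln, which encodes tropoelastin, had the highest ratio of the 10 genes, 2.62, from 18 and 16 peaks at P0 and 5 and 8 at P8. For comparison, the ratio of these 15704 genes had a median of 1.29 and a 95th percentile of 2.13. Eln was picked as the highest of 10 genes, so a percentile of single genes does not test it. Fbn1, the longest of the genes, had the most peaks, 46 and 37 at P0 and 21 and 33 at P8.

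**Figure D1:**
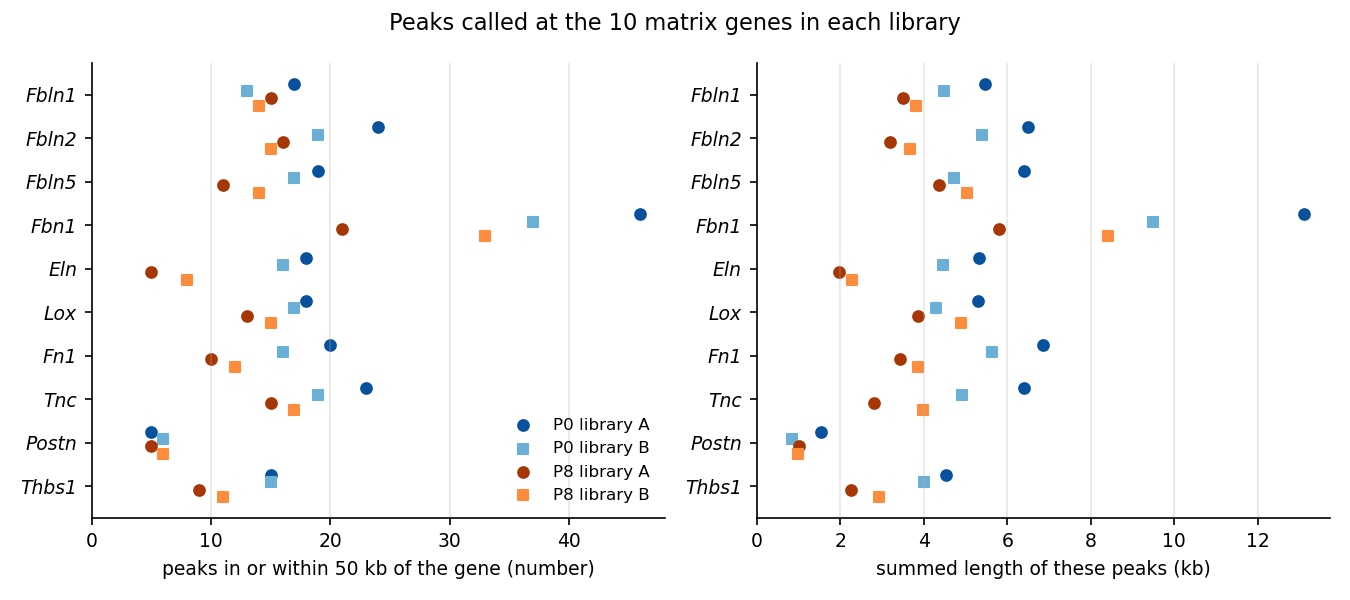
Number of peaks (left) and their summed length in kb (right) in or within 50 kb of each gene, with 1 point for each library (P0 in blue, P8 in orange). At Eln the P0 libraries hold 18 and 16 peaks and the P8 libraries 5 and 8, whereas at Postn and Fbln1 the passages overlap in peak number.

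Sites were then sorted by the libraries that held a peak. Of the 226 sites, 86 (38.1%) held a peak in all 4 libraries, beside 34.5% of the 140212 sites in or within 50 kb of any protein-coding gene. At 42 sites (18.6%) both P0 libraries held a peak while neither P8 library did, a pattern called P0-only here, beside 16.7% of those sites. The reverse, called P8-only, was found at 1 site (0.442%), beside 1.6%. Counting a peak in any library of a passage, 80 sites (35.4%) were found at P0 alone, beside 39.7%, and 20 sites (8.85%) at P8 alone, beside 10%. The 10 genes thus had close to the share of P0-only sites found around genes in general. The P0-only sites lay at 9 of the 10 genes, with 12 at Fbn1, 6 at Fn1, 5 each at Fbln2 and Eln, 4 each at Tnc and Thbs1, 3 at Fbln5, 2 at Lox and 1 at Fbln1. Postn had none.

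P0-only sites had a lower fold enrichment and were shorter than sites open in all libraries. Neither contrast is independent of how sites were sorted, since a weak site is more easily left uncalled in a shallower library. The width of a site also spans the peaks of every library that holds it. Their median width was 244.5 bp (86 to 731 bp) and that of the sites in all 4 libraries was 445.5 bp, while the medians around protein-coding genes were 220 and 465 bp. The mean fold enrichment over the P0 libraries had a median of 4.76, beside 7.43 at the sites in all libraries, and single values ranged from 2.10 to 10.5. At 14 of the 42 sites both P0 values were at least 5, and at 3 sites both were at least 8. Within 1 kb of a gene end lay 2 of the P0-only sites, with 21 farther inside genes and 19 outside, as against 10 of the 86 sites in all 4 libraries within 1 kb of an end. No share over all sites around genes was set beside this placement. Scaling to the lowest background of the 4 libraries, which took out few peaks, left 41 P0-only sites of 221. With peaks of a fold enrichment of at least 5 alone there were 19 of 139 (13.7%). Shares around all protein-coding genes were not taken at these settings, so the change is not read as particular to the 10 genes.

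**Figure D2:**
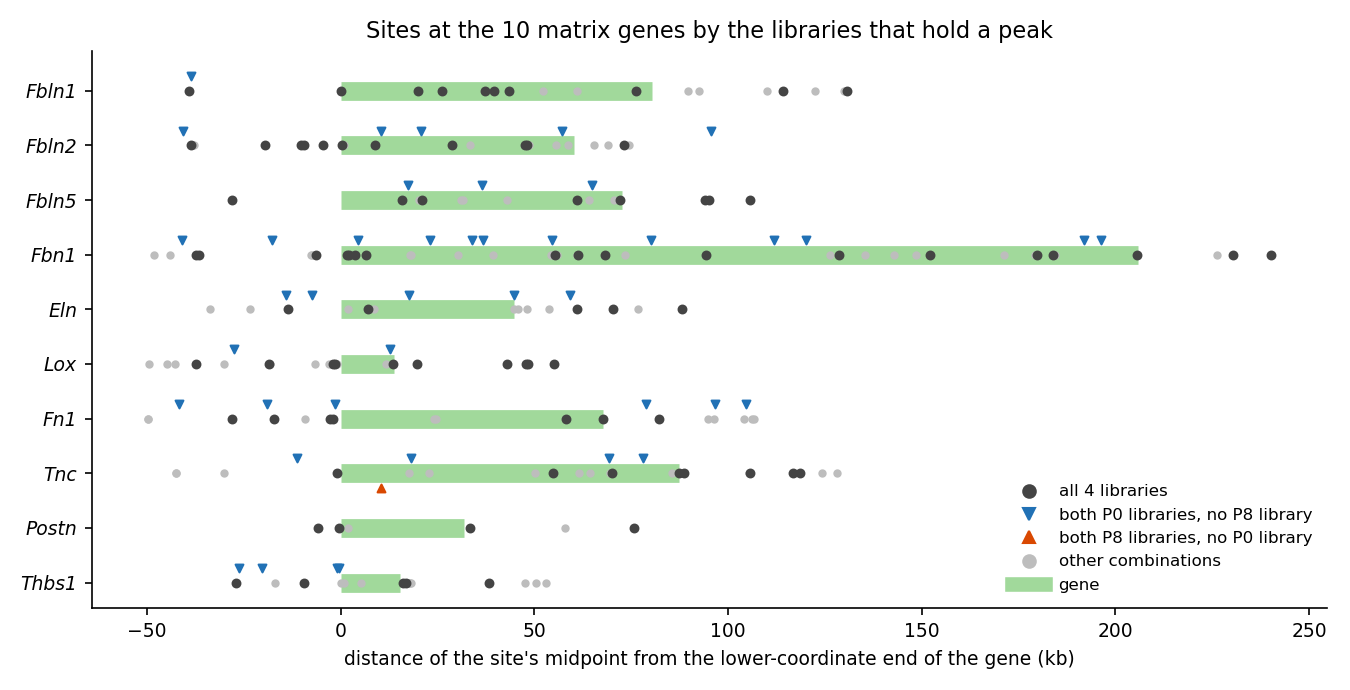
Midpoints of the sites at each gene in kb from the lower-coordinate end of the gene (green bar), coloured by the libraries that hold a peak. The 42 P0-only sites (blue) are spread over genes and flanks, 12 of them at Fbn1, and the 1 P8-only site (orange) lies in Tnc.

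Here the strongest site of a gene is the one with the highest mean fold enrichment over both libraries of a passage. For the 86 sites with a peak in all 4 libraries, the log2 fold enrichment was centred on the median of each library and compared between passages with limma over all 55294 such sites of the genome. Past an adjusted p of 0.05, 3 sites (3.49%) were higher at P0, beside 3.29% of all sites tested, and 6 (6.98%) were higher at P8, beside 5.87%. The median log2 difference of P8 minus P0 was 0.05 at the 86 sites, of which 53 lay above 0 and 33 below, and 0.07 over all sites. These shares lay close to those of the genome. On the log2 pileup in place of the fold enrichment, however, 23 sites (26.7%) were higher at P8, beside 12.4% of all sites, and 6 (6.98%) higher at P0, beside 6.73%. The direction of calls depended on the centring, since before centring the median site was lower at P8 by a log2 difference of -0.20. Without centring, 12 of the 86 sites (13.95%) were higher at P0, beside 9.23% of all sites, and 2 (2.33%) at P8, beside 0.901%, and the share of calls over all sites that were higher at P8 was 8.89% in place of 64.1%. Of the 6 sites higher at P8, those at Fbln2, Fbn1, Fn1 and Thbs1 were no longer called without centring. At an unadjusted p under 0.05 (limma), the whole set of libraries gave 32 of the 86 sites, beside 14425 of the 55294 over the genome. With P0 library B left out, the calls at the 10 genes were not kept, and most calls over the genome were lost. The lone library of a passage was assumed there to vary like those of the other passage.

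**Figure D3:**
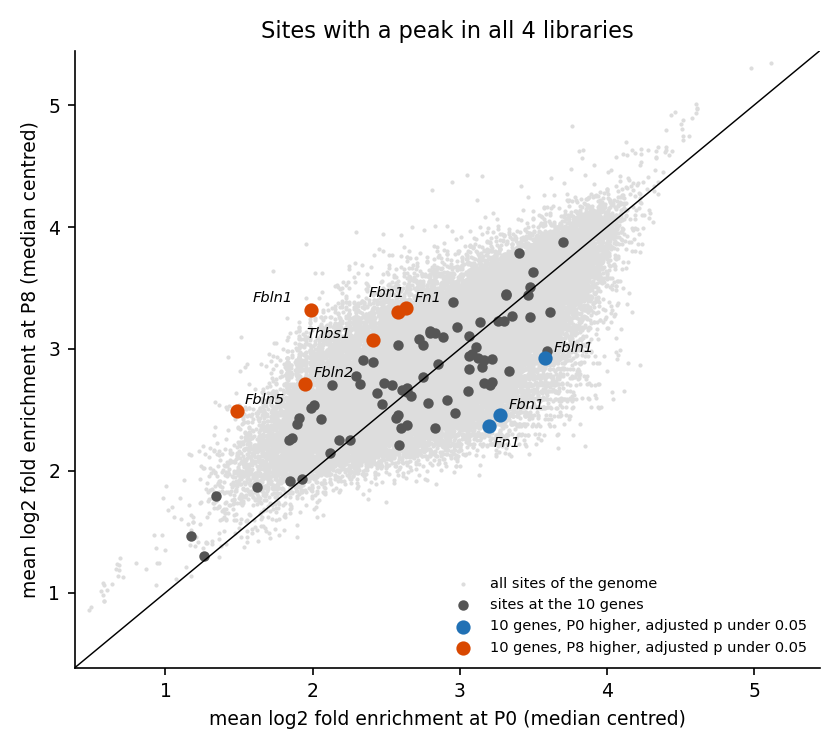
Mean log2 fold enrichment at P0 (x axis) and P8 (y axis), centred on the median of each library, for all 55294 sites with a peak in all 4 libraries (grey) and the 86 at the 10 genes (dark), with equality drawn as a line. The 3 sites higher at P0 (blue) and the 6 higher at P8 (orange) lie at Fbln1, Fbln2, Fbln5, Fbn1, Fn1 and Thbs1.

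The fibulins are secreted glycoproteins that link elastic fibres, microfibrils and basement membranes. The promoter of Fbln1, which binds fibronectin and other matrix proteins, lay in a site on chr15:85205807-85206233 that covered the start of the gene. Its fold enrichment reached 13.7 and 12.6 in P0 libraries A and B but 5.66 and 8.41 in the P8 pair. The passages did not overlap, and the centred log2 difference of P8 minus P0 was -0.66 ± 0.19 (SE), with an adjusted p of 0.044 (limma). This was the only site within 1 kb of an end of a member past the threshold. The call was kept under 2 of 8 alternative settings and was lost without P0 library A, P0 library B or P8 library A.

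Within this start site, the part that precedes the first start of Fbln1 in the RefSeq table is shown because it is the one promoter that passed the test. It lies on the plus strand at chr15:85205807-85205948 (GRCm38.p6), and capitals mark an E-box, CACGTG, whose first base is 81 bases before the start.
Fbln1 start 1: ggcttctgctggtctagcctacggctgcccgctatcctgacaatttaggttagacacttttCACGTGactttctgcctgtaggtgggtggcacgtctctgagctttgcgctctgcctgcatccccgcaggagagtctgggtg
This hexamer, which reads the same on both strands, occurs in the 250 bases before 6.02% of 32851 promoters of the table. It was searched for after the sequences had been read.

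A second site, inside Fbln1 at chr15:85282137-85282374 and 3.92 kb from the far end of the gene, went the other way. Its fold enrichment was 4.14 and 4.58 at P0, against 7.91 and 10.4 at P8. The passages were well separated, with a log2 difference of 1.33 ± 0.18 (SE) and an adjusted p of 0.0062 (limma), the largest difference among the 86 sites. This call was kept under 7 of 8 alternatives, the exception being the fit without P0 library B. Fbln1 thus held a P0-higher site at its start and a P8-higher site near its end. The other 8 of its 10 sites in all libraries did not pass the test. The strongest P8 site of its window, at chr15:85336113-85337047, lay 49.8 kb away in or at the gene Atxn10, with 10.6 and 13.8 at P0 and 9.79 and 10.0 at P8.

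Fbln2, which binds fibrillin and fibronectin and is made at sites of tissue remodelling, had 25 sites. Its start lay in a site on chr6:91212535-91212996, with a fold enrichment of 9.44 and 8.93 at P0 and 6.85 and 7.11 at P8. The raw values did not overlap, but after centring the log2 difference was -0.13 ± 0.17 (SE) and the adjusted p was 0.68 (limma). The paper lists Fbln2 among fibrosis genes with P8-specific accessible regions near promoters. That result came from the authors' own comparison of read counts, a different measure from the fold enrichment of called peaks, and was not repeated here. Among its 5 P0-only sites, the strongest lay 10.2 kb into the gene on chr6:91222650-91223164, with 9.73 and 9.97. The next, on chr6:91269325-91270051 and 2.49 kb from the far end, had 7.96 and 8.24. Both were among the strongest P0-only sites of the 10 genes, at levels close to those of the start site in the same libraries. The site of Fbln2 called higher at P8, chr6:91259775-91260090, had 4.58 and 3.94 at P0 and 4.53 and 7.90 at P8. P8 library A there lay below P0 library A, so this call (log2 difference 0.76 ± 0.21, adjusted p = 0.040, limma) rested on the centring and was also lost without P0 library A, P0 library B or P8 library B.

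Fbln5, which tethers elastin to microfibrils and cells, had 17 sites. The site over its starts, chr12:101817983-101819310, was 1328 bp wide and had a fold enrichment of 6.69 and 5.63 at P0 and 5.71 and 6.33 at P8. The values overlapped and the log2 difference was 0.24 ± 0.17 (SE, adjusted p = 0.41, limma). Inside the gene, on chr12:101762117-101762524, the fold enrichment was 2.95 and 3.20 at P0, against 5.00 and 5.25 at P8. This difference of 1.01 ± 0.17 (SE) had an adjusted p of 0.0081 (limma) and was kept under 6 of 7 alternatives, the exception being the fit without P0 library B. The tags at the summit were 12 and 11 at P0 and 12 and 13 at P8 there, in libraries of unequal depth. The median log2 difference of its 8 sites in all libraries was 0.29, and its 3 P0-only sites had values from 3.96 to 6.41.

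The Fbln5 promoter is shown as one that stayed open at both passages. The bases before its second start lie on the minus strand at chr12:101819120-101819269 (GRCm38.p6), and capitals mark a GC box, GGGCGG read on the other strand, whose first base is 48 bases before the start.
Fbln5 start 2: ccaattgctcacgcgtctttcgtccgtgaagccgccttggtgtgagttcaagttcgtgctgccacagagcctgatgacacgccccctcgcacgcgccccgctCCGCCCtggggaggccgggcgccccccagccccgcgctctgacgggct
The letters GGGCGG, on either strand, occur in the 250 bases before 32.7% of all promoters and before 6 of the 10 starts in the table of the 6 members it holds, at Fbln1, Fbln2, Fbln5, Fbn1 and Tnc. The AP-1 site TGANTCA (6.75% of all promoters), the TEAD site GGAATG (12.6%), the RUNX site TGTGGT (14.05%) and the SRF CArG box (1.47%) were found before none of these 10 starts. A match is a run of letters and does not show that a factor binds.

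Fbn1 encodes fibrillin-1, which forms the microfibrils that carry elastin and hold latent TGF-β. It had 50 sites, 18 of them in all 4 libraries. The site over its start, chr2:125505287-125507101, was the widest of all member sites (1815 bp) and had a fold enrichment of 7.05 and 7.49 at P0 and 6.45 and 9.17 at P8. The values overlapped, and the log2 difference was 0.35 ± 0.18 (SE, adjusted p = 0.24, limma). The promoter thus did not pass the test, while 2 sites inside the gene did, in opposite directions. On chr2:125394683-125395057, 111 kb from the start, the fold enrichment was 10.8 and 10.5 at P0, against 4.94 and 5.05 at P8, a difference of -0.82 ± 0.17 (SE, adjusted p = 0.014, limma). On chr2:125452464-125453062, 53.4 kb from the start, it was 7.86 and 5.49 at P0, against 8.73 and 9.29 at P8, a difference of 0.73 ± 0.19 (SE, adjusted p = 0.034, limma). The first call was kept under 6 of 8 alternatives and lost without either P0 library, and the second was kept under 4 of 8 and lost without centring (log2 difference 0.45, adjusted p = 0.16, limma) and without P0 library B.

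Fbn1 also had the most P0-only sites, 12 of 50. The strongest 3 lay inside the gene, with a fold enrichment of 7.04 and 6.41 on chr2:125323364-125323638, of 6.16 and 7.33 on chr2:125354888-125355299 and of 7.45 and 5.95 on chr2:125492233-125492652. The strongest site of P0, chr2:125471769-125472168, had 11.5 and 12.6 there and 8.08 in P8 library B, but no peak was called in P8 library A. The 4 sites of Fbn1 that had a peak at P8 alone were all called in P8 library B and not in P8 library A.

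Eln encodes tropoelastin, the soluble precursor of the elastic core. Its promoter sequence and strand were not in the table used, and its ends are named by coordinate. No site within 1 kb of an end of Eln held a peak in all 4 libraries. At the higher end, a site on chr5:134747343-134747444 had 3.90 and 4.41 at P0 and no peak at P8. A stronger site 0.825 kb outside that end, chr5:134748193-134748603, had 8.93 and 5.35 at P0 and 8.03 in P8 library B, with no peak in P8 library A. Of 19 sites, 5 were P0-only, 5 were in all libraries and none was called at P8 alone. The strongest P0-only site lay inside the gene on chr5:134720110-134720492, with 7.04 and 10.1. The strongest sites of the window were outside the gene. One on chr5:134763179-134763808 had 12.5 and 12.0 at P0 and 8.74 and 8.69 at P8, and another on chr5:134688438-134689360, in or at the neighbouring gene Limk1, had 11.0 and 10.9 at P0 and 9.60 and 10.2 at P8. Their log2 differences were -0.22 ± 0.17 and 0.12 ± 0.17 (SE), and neither passed the test (adjusted p = 0.44 and 0.68, limma). At Eln, 0 of 5 sites in all libraries passed the threshold.

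Lox encodes lysyl oxidase, which cross-links elastin and collagen outside the cell. The site over its higher end, chr18:52529073-52530159, had a fold enrichment of 7.54 and 8.31 at P0 and 6.55 and 6.84 at P8. The raw values did not overlap, and after centring the difference was 0.03 ± 0.17 (SE, adjusted p = 0.94, limma). The site of its window with the highest mean fold enrichment at either passage lay 28.8 kb beyond that end, on chr18:52558638-52559205, with 13.7 and 14.8 at P0 and 13.3 and 13.4 at P8. A site on chr18:52570879-52571224 was higher than this one in P0 library A, at 15.9, but not in the other libraries. Lox had 10 sites in all libraries and 2 P0-only sites with values from 3.14 to 5.38. On the fold enrichment it had no call in either direction, while calls on the pileup were not listed by gene. Both the end site and the distal site thus held a strong peak in every library.

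Fn1 encodes fibronectin, the integrin-binding glycoprotein of provisional matrix. The site over its higher end, chr1:71652686-71653877, had a fold enrichment of 6.27 and 7.50 at P0 and 6.50 and 5.22 at P8. The passages overlapped, and the difference was 0.04 ± 0.20 (SE, adjusted p = 0.93, limma). Outside that end by 14.03 kb, the site chr1:71667307-71667791 had 9.76 and 10.4 at P0 and 3.96 and 5.56 at P8. The difference there was -0.84 ± 0.18 (SE, adjusted p = 0.017, limma), the largest in favour of P0 among the 86 sites, with 27 and 24 tags at the summit at P0 and 7 and 10 at P8. It was kept under 6 of 8 alternatives and lost without either P0 library. Beyond the lower end, in or at the gene Atic, the site chr1:71567909-71568384 had 7.35 and 6.34 at P0 and 8.93 and 9.43 at P8, a difference of 0.70 ± 0.17 (SE, adjusted p = 0.026, limma) that was kept under 4 of 8 and lost without either P0 library. It was also lost without centring (log2 difference 0.43, adjusted p = 0.12, limma).

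Of the 6 P0-only sites at Fn1, all lay outside the gene. The strongest, 36.7 kb beyond the higher end on chr1:71690018-71690332, had 8.18 and 8.91. Of the 9 sites wholly beyond that end, 3 were P0-only, 1 was the site called higher at P0, 3 had a peak in P0 library A alone, and the other 2 had peaks in both P0 libraries and 1 P8 library. Around all protein-coding genes, 16.7% of sites were P0-only and 39.7% had peaks at P0 alone. No share was taken for single flanks, so these few sites are not read as a trait of Fn1. Fbln1, Fbn1 and Fn1, the genes of the 3 sites called higher at P0, each also held 1 of the sites called higher at P8.

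**Figure D4:**
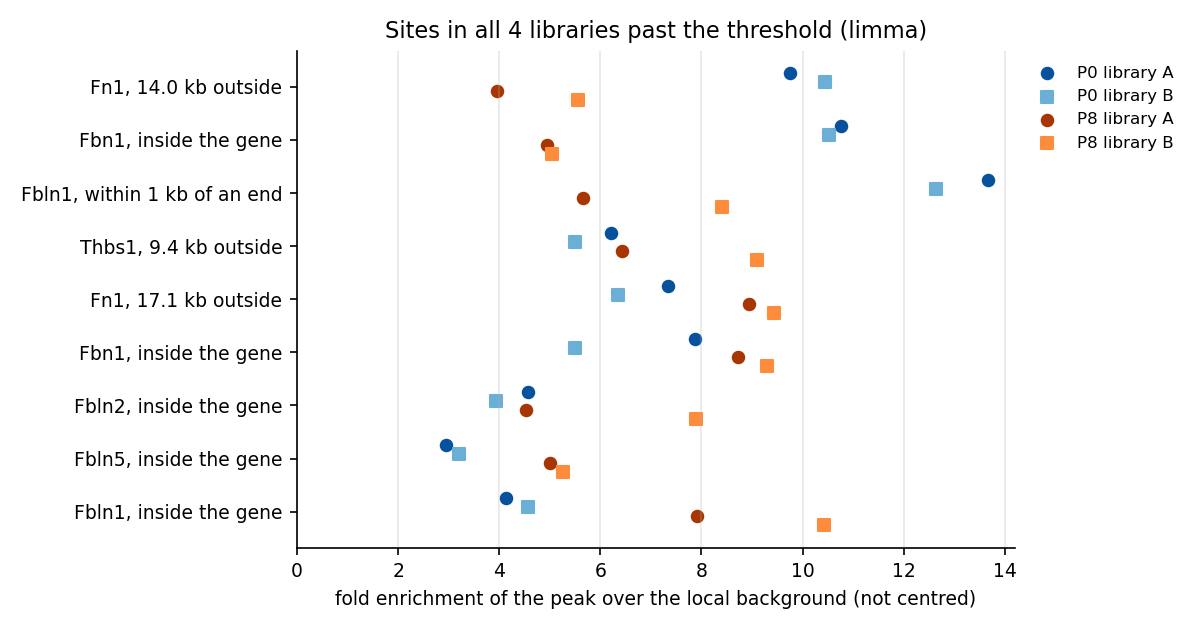
Fold enrichment, not centred, of the 9 sites at the 10 genes that passed an adjusted p of 0.05 (limma), with 1 point for each library. At the upper 3 sites both P0 libraries lie above both P8 libraries, and at the Fbln2 site P0 library A (4.58) lies above P8 library A (4.53).

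Tnc encodes tenascin-C, a large glycoprotein of embryonic and injured tissue that modulates adhesion to fibronectin. It had 27 sites and a site in all 4 libraries at both ends. The site over its starts, chr4:64046747-64047512, had a fold enrichment of 6.76 and 8.50 at P0 and 5.57 and 5.17 at P8. These raw values did not overlap, and after centring the difference was -0.23 ± 0.19 (SE, adjusted p = 0.48, limma). The site 0.707 kb beyond the other end, chr4:63958457-63959078, had 11.5 and 11.8 at P0 and 12.5 and 12.7 at P8. It was the only end site with a peak in all 4 libraries where both raw P8 values lay above both P0 values, and its difference of 0.39 ± 0.17 (SE) did not pass the test (adjusted p = 0.17, limma). The strongest P0 site, chr4:64014313-64014652 inside the gene, had 12.4 and 14.1 at P0 and 7.66 and 6.78 at P8, a difference of -0.61 with an adjusted p of 0.055 (limma).

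The strongest P0-only site of the 10 genes and their sole P8-only site both lay inside Tnc. On chr4:64037416-64038146, 731 bp wide, the fold enrichment was 10.5 and 10.3 at P0 with no peak at P8. On chr4:63970005-63970187 it was 3.96 and 4.55 at P8 with no peak at P0. The first was also the widest P0-only site, and the second was 183 bp wide.

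Periostin, encoded by Postn, is made in periosteum, ligament and healing tissue and binds collagen. Postn had 6 sites, the fewest of the 10 genes, and none was P0-only or P8-only. Of its starts, the first lay 236 bp from a site on chr3:54358483-54359031 with 9.24 and 9.15 at P0 and 6.35 and 6.67 at P8. The raw values did not overlap, and the centred difference was -0.23 ± 0.17 (SE, adjusted p = 0.42, limma). The second start lay in a weak site, chr3:54361021-54361125, with 5.46 in P0 library A, 4.94 in P8 library B and no peak in the other two. The strongest P0 site was 43.6 kb beyond the far end, on chr3:54434659-54435038, with 9.93 and 12.4 at P0 and 7.42 and 5.56 at P8, and its difference of -0.52 missed the threshold (adjusted p = 0.14, limma).

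A TATA-like run, TATATAA, stood just before a start of Tnc and of Postn, and these stretches are shown because such boxes lie at that distance from starts. The Tnc stretch is on the minus strand at chr4:64046957-64046986 and the Postn stretch on the plus strand at chr3:54361057-54361086 (GRCm38.p6), with the run in capitals.
Tnc start 1: attacagaggaaggagctcccTATATAAgc
Postn start 2: gctccctcccacagcccagagcTATATAAa
The first capital is 29 bases before the start in Tnc and 28 bases before it in Postn. The run occurs, on either strand, in the 250 bases before 3.04% of all promoters and was searched for after the sequences had been read. The motif TATAAA, also searched for, occurs before 12.4% of them. It overlaps the run at Postn start 2, with its first base 26 bases before the start. In Tnc it stands apart from the run, 205 bases before start 1. The Tnc stretch lies in a site of all 4 libraries, and the Postn stretch in the weak site of P0 library A and P8 library B.

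Thbs1 encodes thrombospondin-1, which binds matrix and activates latent TGF-β. It had 19 sites, and in 3 of the 4 libraries its peaks combined many tags with a high local background. The median local background of its peaks was 13.1 and 1.73 tags at P0, against 21.2 and 23.5 at P8, where the median over all peaks of a library was from 1.33 to 1.66. The median pileup was 42 and 27 tags at P0, against 41 and 43 at P8, beside 13 to 16 over all peaks. Tags at Thbs1, here and below, are not scaled for depth, which was lower in both P8 libraries. Similar tags at both passages thus do not mean an equal signal for the depth. The fold enrichment of its median peak was 3.72 and 4.58 at P0, against 2.51 and 2.30 at P8. A low fold enrichment at Thbs1 went with many tags, and the passages were further apart in fold enrichment than in unscaled pileup.

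At the lower end of Thbs1, the site chr2:118111646-118112105 had 62 and 44 tags at P0 and 34 in P8 library A, at a fold enrichment of 3.72, 3.61 and 2.47, and no peak was called in P8 library B. A P0-only site 0.455 kb outside that end, chr2:118111213-118111421, had 42 and 35 tags. In P8 library B a peak with 43 tags was called 0.564 kb inside the same end, on chr2:118112440-118112745. Each peak called at this end thus had more tags than the median peak of its library. Beyond the higher end, the site chr2:118127410-118128270 had 70 and 64 tags at P0 and 62 and 61 at P8, with 2.28, 3.05, 2.37 and 2.11 in fold enrichment and a difference of 0.03 ± 0.20 (SE, adjusted p = 0.94, limma). The site called at Thbs1, chr2:118102232-118102520, 9.36 kb outside the lower end, had 6.21 and 5.49 at P0 and 6.43 and 9.09 at P8. P8 library A was above P0 library A by little, and the call (difference 0.66 ± 0.18, adjusted p = 0.040, limma) was kept under 2 of 8 alternatives and lost without P0 library A, P0 library B or P8 library B. It was also lost without centring (log2 difference 0.39, adjusted p = 0.22, limma).

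Next to Thbs1, Fn1 was the gene with the highest local background at P8, with medians of 3.03 and 6.99 tags, beside 1.83 and 1.72 at P0. The other 8 genes had medians from 0.979 to 2.72 tags.

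**Figure D5:**
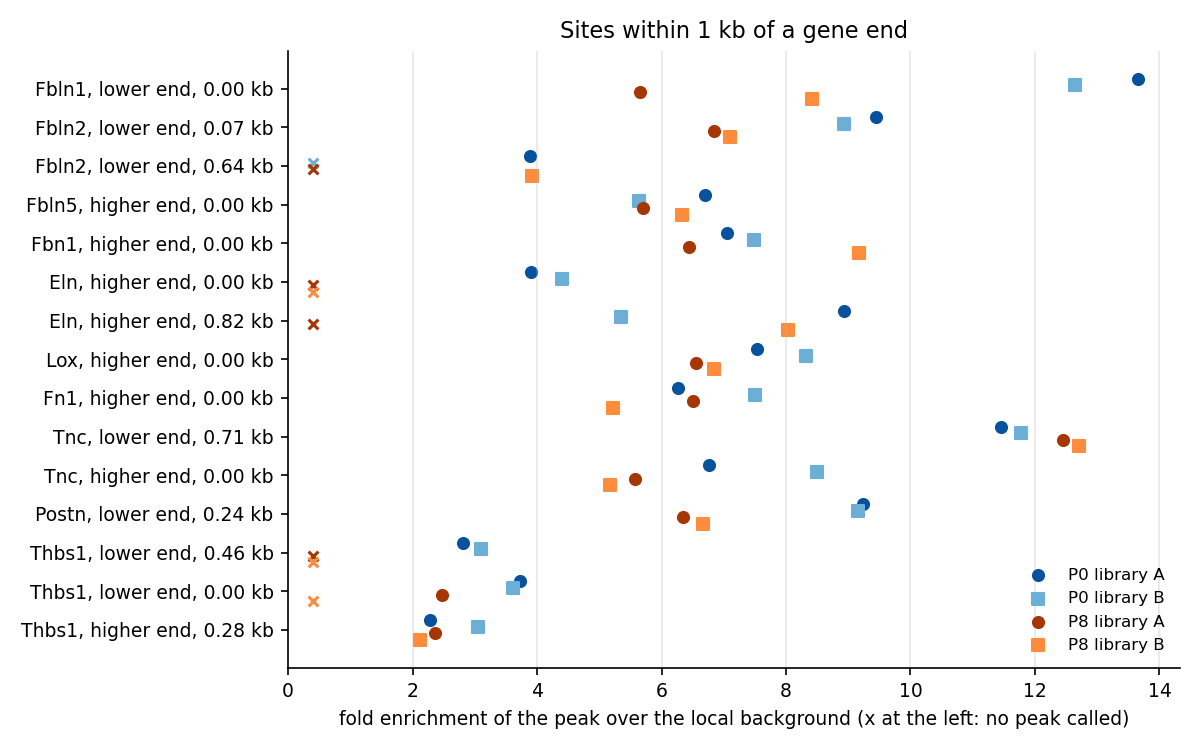
Fold enrichment of the sites within 1 kb of an end of each gene that hold a peak in at least 2 libraries, with a cross at the left where no peak was called and the distance to the end in kb. The Fbln1 start shows the widest gap between passages, and the 3 Thbs1 sites lie between 2.11 and 3.72.

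Counted by gene, a site within 1 kb of an end held a peak in all 4 libraries at 9 of the 10 genes, with Eln the exception, beside 73.3% of the 15704 protein-coding genes with as many peaks. Among 28 related genes of elastic fibres and wound matrix there was such a site at 21, and no library held an end peak at 2, Tnn and Vtn. These 28 genes had 708 sites, of which 106 (15.0%) were P0-only and 14 (1.98%) P8-only, beside 18.6% and 0.442% at the 10 genes and 16.7% and 1.6% around all protein-coding genes. Of their 283 sites in all libraries, 3 (1.06%) were higher at P0 and 18 (6.36%) higher at P8 (limma, adjusted p under 0.05). These shares were 3.29% and 5.87% over all sites tested and 3.49% and 6.98% at the 10 genes. The one end site past the threshold in the related list was at Fbln7, a further fibulin gene, and was higher at P8, in the opposite direction to the Fbln1 start. A P0-only end site was found at 6 of these genes, Ltbp3, Mfap4, Emilin1, Loxl1, Bmp1 and Thbs4, and a P8-only end site at 0. No share over all protein-coding genes was set beside these end sites, so the counts are not read as particular to the list. A difference between the lists was not tested.

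The edge of the window bore on these counts at Lox, where the outermost site inside lay 49.6 kb from the gene with a peak in P8 library B alone (6.25), and the nearest outside lay at 50.03 kb with peaks in all 4 libraries (14.4, 12.5, 8.37 and 11.5). With 10 kb in place of 50 kb on each side, 26 of 142 sites (18.3%) were P0-only, with no share over all genes at that distance beside it.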

How the data were processed

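Per the labels and the study's methods, 4 ATAC-seq libraries were sequenced with paired-end reads of 50 bp and aligned with Bowtie2, and the submitters' processing notes name the build mm10. The authors called peaks with MACS2 for each library and deposited position, pileup (a signal in tags, not scaled for depth), fold enrichment (a ratio to the local background) and, as −log10, a p-value and a q-value for every peak. Another deposited table, of the authors' own comparison, with their fold changes, p-values and FDR, was not used here. Peak names separate the libraries without a replicate number, so they are called A and B. Columns of per-library values left out numbered 0.

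Peaks overlapping by at least 1 bp were joined into sites, with the highest peak of a library as its value, and peaks on other contigs were left out. For library totals, the exact permutation test was two-sided. Sites in all 4 libraries were compared with limma 3.58.1 (R 4.3.3) on the log2 fold enrichment, centred on library medians, with Benjamini-Hochberg adjustment over all 55294 sites. Its moderated variance combines the spread of a site's own libraries with that of all tested sites, and the SE and p-values of limma rest on it. Here log2 values were computed from the deposited ratios. Local background was taken as (pileup + 1) / fold enrichment − 1, and for the matched background peaks were rescaled and kept at a −log10 p of at least 3.38. A protein-coding gene of the RefSeq table of GRCm38.p6 gave each member's position. Promoter sequences and strand came from RefSeq tables of the same build, which held 6 of the 10 members (Fbln1, Fbln2, Fbln5, Fbn1, Tnc and Postn). The sites named were, for each gene, those at its ends, the strongest at each passage, up to 3 in both libraries of 1 passage only, and those past the threshold. The members, lists, motifs and tests were chosen with earlier results of these data known. Merging and limma were tested on simulated data. Software was matplotlib 3.10.9, scipy 1.17.1, pandas 2.3.3 and numpy 2.4.6 in Python 3.11.15.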

Additional observations from a re-analysis of the deposited data

How the results depend on the processing

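At the 10 genes, P0-only sites numbered 42, and 19 with a fold enrichment of at least 5, 26 with 10 kb on each side and from 49 to 71 with 1 library left out (71 without P0 library B). They numbered 56 where a peak had to cover at least 50% of its joined site to count. P8-only sites numbered 1, with 4 under that same rule of 50%, 2 with a fold enrichment of at least 5 and from 2 to 14 with 1 library left out (7 without P0 library A, 2 without P0 library B, 14 without P8 library A and 8 without P8 library B). A smaller set of libraries makes a passage-only site easier to reach by its construction. Calls by limma at the 10 genes numbered 9, with 14 without centring, 4 after quantile normalization, 29 on the log2 pileup (23 higher at P8 and 6 at P0), 4 of 69 sites with a mean fold enrichment of at least 5, and from 0 to 12 with 1 library left out (3 without P0 library A and 0 without P0 library B). Over the genome, 5060 calls became 1980 after quantile normalization, 10584 on the pileup, 3252 of 49546 sites with a mean of at least 5, and from 8 to 7422 with 1 library left out (8 without P0 library B and 1767 without P0 library A). The share of these calls that were higher at P8 was 44.8% after quantile normalization and 54.3% at a mean of at least 5. The cause was not tested. The ratio of peaks lay from 1.25 to 1.39 under other settings and from 1.31 to 1.58 with 1 library left out, and that of covered length from 1.45 to 1.505 and from 1.34 to 1.70. None of the 9 called sites changed sign in its log2 difference under the alternatives run, but 4 of the 6 calls higher at P8 were lost without centring. No paired analysis was possible because the peak names carry no replicate numbers.

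With 2 libraries for each passage the smallest exact permutation p was 0.333, and the lower depth at P8 and the passage cannot be told apart. A site without a peak has no value, so absence means only that no peak was called at that depth. Fold enrichment depends on the local background, which was high at Thbs1.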
